A study of Mus musculus with 12 samples.

Results

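The respiratory chain genes described here are the listed genes whose symbols name a subunit, or a factor named like one, of complexes I to V of oxidative phosphorylation. They were chosen by symbol alone: Nduf symbols for complex I, Sdha to Sdhd for complex II, Uqcr for complex III, Cox4 to Cox8 for complex IV and Atp5 for complex V on the nuclear side, and the mt-Nd, mt-Co, mt-Cytb and mt-Atp symbols on the mitochondrial side, without pseudogenes. The rule found 84 of the 12885 genes in the deposited table, of which 77 are nuclear and 7 mitochondrial. Complex I holds 36 nuclear and 5 mitochondrial members, complex II 4 nuclear members, complex III 8 nuclear and 1 mitochondrial member, complex IV 12 nuclear and 1 mitochondrial member, and complex V 17 nuclear members. The mouse mitochondrial chromosome carries 13 protein genes in the annotation, and those beyond the 7 listed were not analysed here.

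Complexes I to IV pass electrons from NADH and succinate to oxygen, and complexes I, III and IV pump protons across the inner mitochondrial membrane as they do so. Complex V, the ATP synthase, uses that gradient to make ATP. Complexes I, III, IV and V are built from subunits encoded in both genomes, whereas complex II is encoded by the nucleus alone. Naive T cells are small resting cells, and antigen receptor stimulation is known to start cell growth and mitochondrial biogenesis before the first division.

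RNA was measured by sequencing in 12 libraries of splenic naive CD8 T cells (sorted as CD8+ CD62Lhi CD44 lo/-) from mice of the C57Bl/6 background, 6 weeks old and labelled female. Cells came from Ikaros-Zn4-/- mice (Zn4 below) or from wild-type mice (WT), and were used directly (0 h) or kept on plate-bound antibodies against CD3 and CD28 for 12 h or 24 h, which gives 6 groups of 2 libraries. The labels do not describe how the mutant allele was made or whether the replicates came from different mice, so p-values measure the spread between these samples, which may be technical. Levels are RPKM values (reads per kilobase of a gene, relative to the total of its library), from libraries of 24263907 to 33389808 reads.

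Ikzf1, the gene of Ikaros, had 129 and 137 RPKM at 0 h, 114.0 and 124.0 RPKM at 12 h and 136.0 and 139 RPKM at 24 h in Zn4 cells, against 90.9 and 115 RPKM, 128 and 125 RPKM, and 115 and 117.0 RPKM in WT cells at the same times. The level of the gene does not tell whether the protein was altered. The 6 defining T cell genes (Cd3d, Cd3e, Cd3g, Cd8a, Cd8b1 and Trac) summed to 1279 to 2261 RPKM across libraries, Cd4 reached at most 2.09 RPKM, and of the B cell markers Cd79b alone was listed, at 0.298 to 6.62 RPKM. Of the myeloid and natural killer lists Itgam (at most 1.16 RPKM) and Klrk1 (0.860 to 3.87 RPKM) were listed, and none of the 6 erythroid or 2 platelet markers. Although every library is labelled female, 3 libraries of the 12 h groups held Y-linked transcripts. The sum of Ddx3y, Eif2s3y, Kdm5d and Uty was 43.45 and 20.97 RPKM in both Zn4 12 h libraries and 38.93 RPKM in WT 12 h replicate 1, against at most 0.0209 RPKM in the other libraries. Replicate 1 of both 12 h groups nearly lacked Xist, a further check of sex, at 0.0023 RPKM (WT) and 0.026 RPKM (Zn4). Zn4 12 h replicate 2 had 24.3 RPKM of it, and the libraries without Y-linked transcripts had 27.19 to 82.65 RPKM. Libraries with Y-linked transcripts were thus confined to 12 h, and replicates there differed in Xist. Results that rest on the 12 h groups are therefore also given without the 3 libraries with Y-linked transcripts where that is possible. With both Zn4 12 h libraries among the 3, no such value exists for Zn4 at 12 h. Of the nuclear members Cox7b, Ndufa1 and Ndufb11 are X-linked.

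The summed level of the nuclear respiratory chain genes more than doubled within 12 h of stimulation in both genotypes, whereas the summed level of the mitochondrially encoded genes stayed within 1.23-fold of its 0 h mean. The nuclear sum was 2497 and 2366 RPKM at 0 h, 5180 and 5545 RPKM at 12 h and 5234 and 5882 RPKM at 24 h in Zn4 cells. In WT cells the same sum was 2402 and 2116 RPKM at 0 h, 5345 and 5355 RPKM at 12 h and 5822 and 5767 RPKM at 24 h. All stimulated libraries of a genotype stood above both of its 0 h libraries, with mean folds at 12 h and 24 h of 2.21 and 2.29 in Zn4 cells and of 2.37 and 2.56 in WT cells.

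The mitochondrial sum was 6647 and 6182 RPKM at 0 h, 7369 and 7086 RPKM at 12 h and 7064 and 6718 RPKM at 24 h in Zn4 cells. In WT cells it was 7793 and 6391 RPKM at 0 h, 7960 and 7608 RPKM at 12 h and 8601 and 8908 RPKM at 24 h. The folds over 0 h were 1.13 and 1.07 in Zn4 cells, and 1.10 (with overlapping libraries) and 1.23 in WT cells. The ratio of the mitochondrial to the nuclear sum was lower in every stimulated library than at 0 h. It was 2.66 and 2.61 at 0 h, 1.42 and 1.28 at 12 h and 1.35 and 1.14 at 24 h in Zn4 cells, and 3.24 and 3.02, 1.49 and 1.42, and 1.48 and 1.54 in WT cells.

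**Figure D1:**
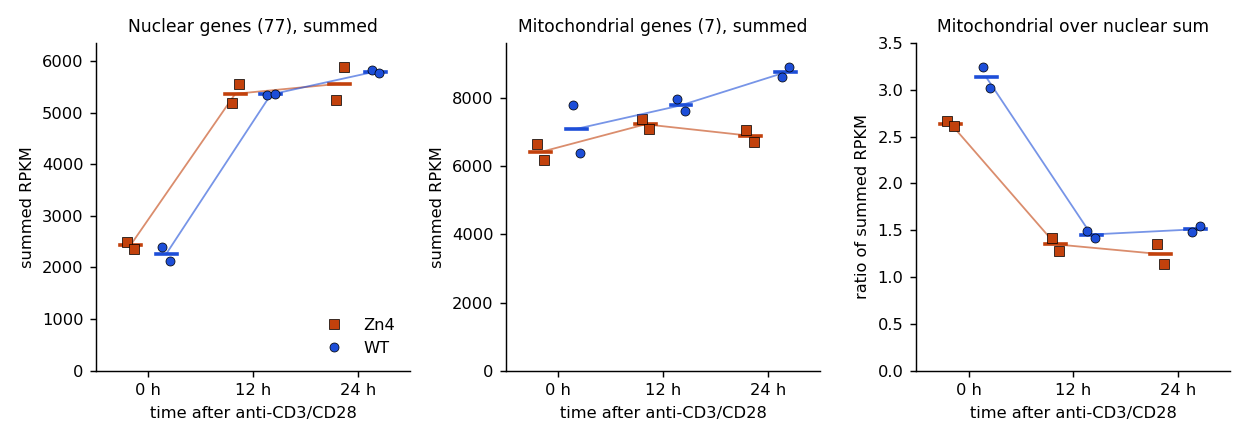
Summed RPKM of the 77 nuclear genes, summed RPKM of the 7 mitochondrial genes, and the ratio of mitochondrial to nuclear sums, in each of the 12 libraries at 0, 12 and 24 h (squares, Zn4; circles, WT; bars, means of 2 libraries, joined by lines). The nuclear sum is 2116 to 2497 RPKM at 0 h and 5180 to 5882 RPKM after stimulation, while the ratio is at least 2.61 at 0 h and at most 1.54 after it.

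RPKM is relative to all reads of a library, so cell growth does not show in it, and in bulk RNA fewer cells of a type and less RNA per cell cannot be told apart. The share of reads in listed genes was 82.5% to 86.1% after stimulation and 73.8% to 76.3% at 0 h, and the median of all 12726 tested genes shifted upwards by 0.19 (12 h) and 0.31 (24 h) on the log2 scale in Zn4 cells and by 0.20 and 0.31 in WT cells. With libraries scaled to a common median ratio of genes instead, the log2 fold of the nuclear sum was 0.86 and 0.80 in Zn4 cells and 0.94 and 0.95 in WT cells at 12 h and 24 h, and that of the mitochondrial sum turned to -0.11 and -0.29 in Zn4 cells and to -0.17 and -0.10 in WT cells. The direction of the small mitochondrial change thus depends on the scaling, and that of the nuclear change does not. Such a scaling applies the same factor to all genes of a library. It cannot alter the ratio of the sums and is therefore no test of it.

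Gene by gene, most nuclear members rose with stimulation. At 12 h against 0 h, 66 nuclear members rose and 3 fell in Zn4 cells (43.5% and 29.6% of all tested genes were called higher and lower), and 67 rose and 4 fell in WT cells (43.1% and 27% of all tested genes). At 24 h against 0 h, 66 rose and 4 fell in Zn4 cells (48.7% and 26% of all tested genes), and 67 rose and 4 fell in WT cells (48.3% and 25.6%). A gene was called when its adjusted p in limma (log2(RPKM + 1), Benjamini-Hochberg over all tested genes) was under 0.05. Fold changes from limma are on this scale, which understates the change of genes near 1 RPKM. The median nuclear log2 change was 1.17 (12 h) and 1.25 (24 h) in Zn4 cells and 1.27 and 1.37 in WT cells, against the medians of all genes given above. In all 4 of these comparisons 64 nuclear members were called higher and 2 lower, 4 were called in none and 7 were mixed. The 2 comparisons of a genotype share their 0 h libraries.

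Complex I, which takes electrons from NADH, had 31 of its 36 nuclear members called higher in Zn4 cells at 12 h and 33 of 36 in WT cells. Ndufa12, an accessory subunit, had 2.92 and 2.94 RPKM at 0 h, 23.2 and 22.9 RPKM at 12 h and 18.7 and 20.8 RPKM at 24 h in Zn4 cells. For Ndufa12 the WT values at these times were 2.58 and 2.76 RPKM, 20.2 and 22.9 RPKM, and 20.7 and 20.6 RPKM. It was low in every 0 h library, and its log2 change at 12 h was 2.61 ± 0.09 (limma adjusted p = 1.92e-08) in Zn4 cells and 2.62 ± 0.09 (adjusted p = 2.72e-08) in WT cells. Ndufc2 and Ndufb6, accessory subunits of the membrane arm, followed with 2.28 and 2.30 in Zn4 cells and 2.36 and 2.33 in WT cells. Among the core subunits that carry flavin or iron-sulphur centres, Ndufv1, which binds the flavin that accepts electrons from NADH, had 21.1 and 19.5 RPKM at 0 h, 44.8 and 48.8 RPKM at 12 h and 46.7 and 54.9 RPKM at 24 h in Zn4 cells. For Ndufv1 the WT values at these times were 19.7 and 19.0 RPKM, 49.0 and 48.3 RPKM, and 56.0 and 56.3 RPKM. All stimulated libraries were above those of 0 h. The iron-sulphur subunits Ndufs1 and Ndufs8 changed by 0.93 and 1.57 at 12 h in Zn4 cells and by 0.80 and 1.61 in WT cells. Ndufa6 and Ndufb11, both accessory subunits, passed the test in neither genotype at either time, and their levels ran from 74.2 to 108 RPKM and from 36.2 to 47.0 RPKM across all libraries. Under the median-ratio scaling both were called lower in Zn4 cells, Ndufa6 at -0.55 and -0.69 and Ndufb11 at -0.34 and -0.44 (12 h and 24 h), and Ndufa6 also in WT cells at 24 h (-0.33, limma adjusted p = 0.034).

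Complex II, succinate dehydrogenase, had all 4 members called higher in each of the 4 comparisons with 0 h. Between 12 h and 24 h, 1 member was called higher in Zn4 cells and 2 in WT cells. Sdhd, a membrane anchor, had 40.2 and 38.7 RPKM at 0 h, 88.2 and 94.4 RPKM at 12 h and 121 and 137 RPKM at 24 h in Zn4 cells. For Sdhd the WT values at these times were 40.9 and 39.9 RPKM, 87.2 and 97.7 RPKM, and 133 and 137 RPKM. All libraries of a later time stood above those of the earlier time, and 24 h differed from 12 h by 0.49 ± 0.09 in Zn4 cells and 0.54 ± 0.09 in WT cells (limma adjusted p = 0.00232 and 0.00192). With the Y-linked level as a covariate the Zn4 difference lost its call (0.33, adjusted p = 0.212) and the WT difference kept it (0.46, adjusted p = 0.022), and without the libraries with Y-linked transcripts the WT difference was 0.46 (adjusted p = 0.0423). The complex II sum reached 2.39-fold (12 h) and 2.93-fold (24 h) of its 0 h mean in Zn4 cells and 2.44-fold and 3.15-fold in WT cells. Sdhc, the other anchor, had the largest log2 change of the complex at 12 h, at 1.66 in Zn4 cells and 1.68 in WT cells, and the catalytic subunits Sdha (flavin) and Sdhb (iron-sulphur) changed by 1.11 and 1.22 in Zn4 cells and by 1.16 and 1.31 in WT cells.

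Complex III, which hands electrons from ubiquinol to cytochrome c, had 7 of 8 members called higher in Zn4 cells and 8 of 8 in WT cells at both times. Its small subunit Uqcr11 had 12.3 and 13.5 RPKM at 0 h, 65.4 and 69.1 RPKM at 12 h and 51.3 and 69.9 RPKM at 24 h in Zn4 cells. For Uqcr11 the WT values at these times were 9.08 and 10.5 RPKM, 67.8 and 68.3 RPKM, and 75.9 and 69.4 RPKM. The stimulated libraries did not overlap those of 0 h. The 12 h change was 2.30 ± 0.13 in Zn4 cells (limma adjusted p = 3.12e-07) and 2.68 ± 0.13 in WT cells (adjusted p = 1.6e-07). On this log2(RPKM + 1) scale it was the largest of all nuclear members in WT cells. By the ratio of mean RPKM Ndufa12 rose more there, 8.1-fold against 6.9-fold for Uqcr11. Uqcrq, another small subunit, changed by 2.27 in Zn4 cells and 2.45 in WT cells, and the core subunits Uqcrc1 and Uqcrc2 by 1.17 and 1.40 in Zn4 cells and by 1.18 and 1.42 in WT cells. Uqcrh, the hinge protein, was the exception: its levels were 94.0 and 95.05 RPKM at 0 h, 85.5 and 87.5 RPKM at 12 h and 84.2 and 98.1 RPKM at 24 h in Zn4 cells, against 87.2 and 80.8 RPKM, 97.0 and 97.4 RPKM, and 102 and 98.3 RPKM in WT cells, and it was called in WT cells, with small changes of 0.21 and 0.25, and not in Zn4 cells (-0.13 and -0.06). These calls depend on the scaling: under the median-ratio scaling the WT changes turned to -0.09 and -0.15 and were not called, and Uqcrh was called lower in Zn4 cells at both times (-0.41 and -0.45, limma adjusted p = 0.00118 and 0.00063). The difference between genotypes in its change was called at neither time.

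Complex IV, cytochrome c oxidase, held both large rises and, at 12 h, the largest fall. Cox5a, a matrix-side subunit, had 16.9 and 16.1 RPKM at 0 h, 75.6 and 83.9 RPKM at 12 h and 75.5 and 95.5 RPKM at 24 h in Zn4 cells. For Cox5a the WT values at these times were 14.9 and 14.5 RPKM, 72.5 and 83.99 RPKM, and 76.3 and 77.1 RPKM. Its 12 h change was 2.20 in Zn4 cells and 2.33 in WT cells. Cox7a2l is known as a factor that can join complexes III and IV into supercomplexes, and whether it does so in these mice was not tested. It had 113 and 111 RPKM at 0 h, 26.1 and 27.0 RPKM at 12 h and 39.6 and 42.5 RPKM at 24 h in Zn4 cells. For Cox7a2l the WT values at these times were 122 and 92.5 RPKM, 26.8 and 34.0 RPKM, and 44.7 and 44.6 RPKM. It was thus among the most abundant nuclear members at 0 h, and fell by 2.04 on the log2 scale at 12 h in Zn4 cells (limma adjusted p = 7.46e-07) and by 1.78 in WT cells (adjusted p = 2.2e-06), with no overlap between 0 h and later libraries. Its subunit relative Cox7a2 changed the other way, by 1.65 in both genotypes at 12 h. Cox4i1, the isoform of subunit 4 listed here, changed by 0.51 at 12 h in Zn4 cells and by 0.70 in WT cells; under the median-ratio scaling its calls in Zn4 cells at 12 h (0.23, limma adjusted p = 0.0532) and in WT cells at 24 h (0.12) ended, and its change of 0.37 in Zn4 cells at 24 h turned to -0.03, not called. Cox6b2, an isoform known from testis, stayed at 0.568 to 1.61 RPKM across libraries beside 88.1 and 79.4 RPKM at 0 h, 236 and 249.6 RPKM at 12 h and 237 and 270.5 RPKM at 24 h for Cox6b1 in Zn4 cells. The isoforms Cox4i2, Cox6a2, Cox7a1, Cox8b, Cox8c and Ndufa4l2 were not analysed here.

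Complex V, the ATP synthase, held a larger share of the nuclear sum after stimulation. Atp5b, the catalytic beta subunit, had 109 and 112 RPKM at 0 h, 403 and 413 RPKM at 12 h and 406 and 425 RPKM at 24 h in Zn4 cells. For Atp5b the WT values at these times were 104 and 111 RPKM, 405 and 386 RPKM, and 395 and 396 RPKM. Its 12 h change was 1.88 ± 0.07 in Zn4 cells and 1.87 ± 0.07 in WT cells (limma adjusted p = 2.61e-08 and 3.79e-08). Atp5a1, the alpha subunit, had 139.5 and 144 RPKM at 0 h, 350.3 and 362 RPKM at 12 h and 349 and 398 RPKM at 24 h in Zn4 cells, against 133 and 131 RPKM, 359 and 355 RPKM, and 406 and 406 RPKM in WT cells. Either Atp5a1 or Atp5b was the highest nuclear member in every group. Of the 3 genes for subunit c of the membrane ring, Atp5g3 carried nearly all of the listed level, at 43.1 to 178 RPKM, whereas Atp5g1 and Atp5g2 were at 0.316 to 1.995 RPKM; Atp5g2 has annotated near-identical copies, so its level is uncertain. Atp5sl, which the annotation names Dmac2 and which is known as an assembly factor of complex I rather than a subunit of complex V, had 25.8 and 22.3 RPKM at 0 h, 11.1 and 11.6 RPKM at 12 h and 7.65 and 7.70 RPKM at 24 h in Zn4 cells. For Atp5sl the WT values at these times were 28.3 and 23.4 RPKM, 10.6 and 12.4 RPKM, and 9.96 and 9.90 RPKM. It fell by 1.02 at 12 h and 1.53 at 24 h in Zn4 cells and by 1.10 and 1.29 in WT cells (log2 scale). Cox7a2l and Atp5sl, the members called lower in all 4 comparisons, are thus both known as assembly factors. Their fall was not shared by most such factors. In a separate list of 40 assembly factors, 34 rose and 2 fell at 12 h in Zn4 cells, and 33 rose and 3 fell in WT cells.

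The shares of the complexes in the nuclear sum moved little beside the common rise. Complex V held 26.9% to 27.63% of the nuclear sum in stimulated libraries and 22.15% to 24.03% at 0 h, and complex IV 21.08% to 22.26% after stimulation and 23.42% to 25.34% at 0 h. Complex II held 5.195% to 5.644% at 24 h and 4.011% to 4.736% at 0 h. Complex I (31.2% to 34.19%) and complex III (13.7% to 14.58%) stayed within narrow ranges over all libraries. Ndufa4, now regarded as a subunit of complex IV, is counted here under complex I by its symbol. It rose 3.76-fold (Zn4) and 4.42-fold (WT) at 12 h, against 2.14-fold and 2.29-fold for the complex I sum. The shares of complexes I and IV therefore depend on this placement, and shares with Ndufa4 in complex IV were not computed. These shares add up RPKM over the full annotated exon length of each gene, so that members with long, rarely used exons count for less.

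**Figure D2:**
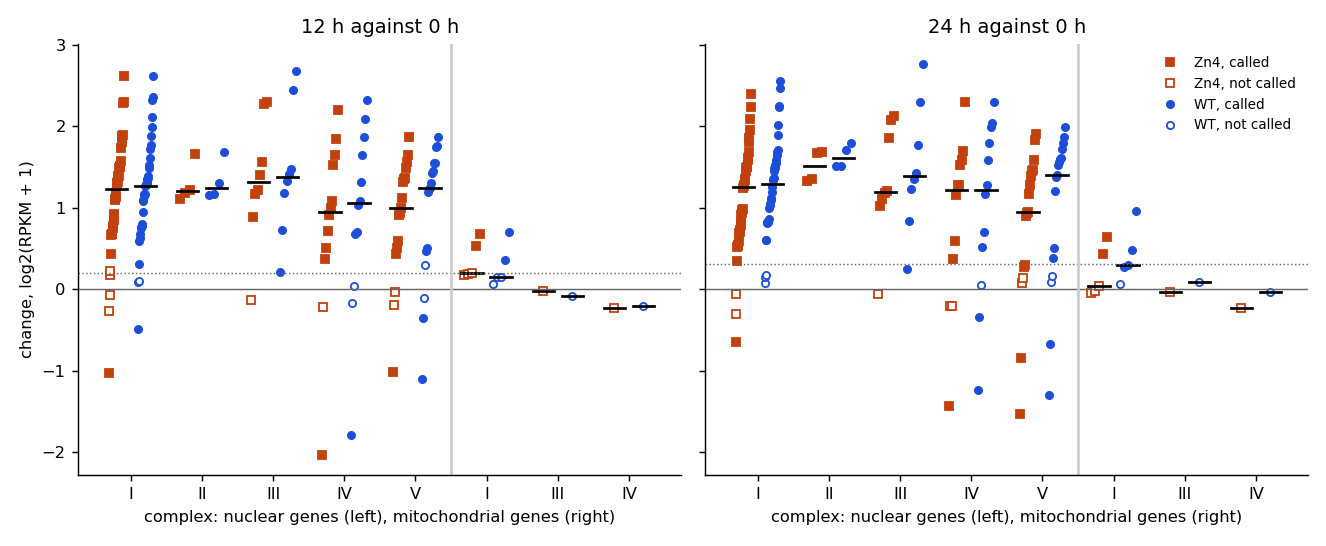
Log2 change of each respiratory chain gene (log2(RPKM + 1), limma) at 12 h and 24 h against 0 h in Zn4 and WT cells, by complex and genome; filled points were called, black bars are medians, and the dotted line is the median of all tested genes in WT cells. Most nuclear genes lie above the line in every complex, with Cox7a2l and Atp5sl far below 0, and the mitochondrial genes lie between -0.23 and 0.96.

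The nuclear members lie on 19 chromosomes, and 66 of the 77 could be matched by symbol to a promoter window in RefSeq (GRCm38.p6; 250 bases before to 50 bases after the start of a gene). Known regulators of respiratory genes include NRF1, the ETS factor GABP and YY1. The letters GCGCATGC (NRF1) were found on either strand in 15.2% of the 66 windows, against 6.56% of the 8157 table genes with a window; CCGGAAG (ETS) in 24.2%, against 22.2%; AAGATGGC (YY1) in 16.7%, against 5.88%; and CCAAT in 43.9%, against 43.1%. Over all 27025 genes with a window the shares were 3.05%, 9.93%, 3.19% and 41.1%. At least 1 of the NRF1, ETS and YY1 words was present in 31 of the 66 windows. The median WT change at 12 h was 1.16 for members with the NRF1 word and 1.28 for those without it, 1.30 and 1.24 for ETS, 1.31 and 1.18 for YY1, and 1.17 and 1.29 for CCAAT. These matches are descriptions of letters, not of binding.

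The 120 bases before the RefSeq start are shown for the member of each complex with the largest rise at 12 h in WT cells among those with a single window, and for Cox7a2l, the member with the largest fall at that time, so that promoters of genes that moved together and apart can be compared. Capitals mark an NRF1, ETS or YY1 word, and Sdhb stands for complex II. The windows, all GRCm38.p6 from RefSeq, are chr10:94198915-94199034 (plus strand) for Ndufa12, chr4:140961151-140961270 (plus) for Sdhb, chr10:80406822-80406941 (minus) for Uqcr11, chr9:57521112-57521231 (plus) for Cox5a, chr10:128083187-128083306 (plus) for Atp5b and chr17:83514334-83514453 (minus) for Cox7a2l.
Ndufa12: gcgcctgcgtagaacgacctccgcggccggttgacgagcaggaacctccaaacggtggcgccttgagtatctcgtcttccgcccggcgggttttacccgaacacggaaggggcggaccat
Sdhb: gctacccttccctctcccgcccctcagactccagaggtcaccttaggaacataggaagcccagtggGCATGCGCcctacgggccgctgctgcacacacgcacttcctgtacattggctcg
Uqcr11: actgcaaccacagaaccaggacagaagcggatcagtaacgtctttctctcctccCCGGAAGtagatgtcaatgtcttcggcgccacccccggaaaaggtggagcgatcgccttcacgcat
Cox5a: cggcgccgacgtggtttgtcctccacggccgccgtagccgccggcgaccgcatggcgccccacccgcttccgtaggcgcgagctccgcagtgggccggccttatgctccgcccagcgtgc
Atp5b: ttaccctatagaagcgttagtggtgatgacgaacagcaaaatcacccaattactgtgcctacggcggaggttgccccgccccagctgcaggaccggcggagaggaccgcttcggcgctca
Cox7a2l: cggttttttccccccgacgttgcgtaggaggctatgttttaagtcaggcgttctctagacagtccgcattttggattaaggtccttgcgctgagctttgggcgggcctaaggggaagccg
The 120 bases shown for Sdhb hold the NRF1 word, read on the opposite strand, and those for Uqcr11 the ETS word. Over the full promoter windows Sdhb and Uqcr11 each hold both the NRF1 and the ETS word. No NRF1, ETS or YY1 word was found in the 120 bases of Ndufa12, Cox5a, Atp5b or Cox7a2l, although Ndufa12, Cox5a and Atp5b changed by 2.62, 2.33 and 1.87 at 12 h in WT cells.

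The 7 mitochondrial genes stood apart in level and in response. In every group the lowest of them had a higher mean (454 to 538 RPKM) than the highest nuclear member (132 to 415 RPKM), and the median nuclear member had 17.6 to 53.8 RPKM. mt-Nd1, mt-Nd2, mt-Nd4, mt-Nd5 and mt-Nd6 encode core membrane subunits of complex I, mt-Cytb the cytochrome b of complex III and mt-Co1 the catalytic subunit of complex IV. On the mitochondrial chromosome (GRCm38) the annotation places mt-Nd1 at chrM:2751-3707, mt-Nd2 at chrM:3914-4951, mt-Co1 at chrM:5328-6872, mt-Nd4 at chrM:10167-11544, mt-Nd5 at chrM:11742-13565 and mt-Cytb at chrM:14145-15288, each a single exon on the plus strand, while mt-Nd6 lies on the minus strand at chrM:13552-14070. The sources used here do not say whether counting used strand, so reads of mt-Nd6 and of the opposite transcript cannot be told apart, and mt-Co1, mt-Nd4 and mt-Nd5 have near-identical annotated nuclear copies.

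mt-Nd1 rose in both genotypes. It had 1033 and 932 RPKM at 0 h, 1632 and 1515 RPKM at 12 h and 1545 and 1520 RPKM at 24 h in Zn4 cells. For mt-Nd1 the WT values at these times were 1252 and 968 RPKM, 1802 and 1784 RPKM, and 2095 and 2181 RPKM. Stimulated libraries did not overlap those of 0 h, and the change was 0.68 ± 0.12 at 12 h and 0.64 ± 0.12 at 24 h in Zn4 cells and 0.70 ± 0.12 and 0.96 ± 0.12 in WT cells (limma adjusted p = 0.000594, 0.000838, 0.000527 and 5.69e-05). Its call in Zn4 cells at 24 h ended under the median-ratio scaling (0.25, adjusted p = 0.0813). mt-Nd2 was called higher in the same 4 comparisons, with changes of 0.54 and 0.43 in Zn4 cells and 0.35 and 0.48 in WT cells. None of its calls held under the median-ratio scaling (changes of 0.04 to 0.26), and its WT 12 h call also ended without WT 12 h replicate 1 (adjusted p = 0.135), one of the libraries with Y-linked transcripts. mt-Nd6 and mt-Nd5 were called higher in WT cells at 24 h alone, with changes of 0.30 and 0.28 that turned to -0.11 and -0.13 under that scaling.

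mt-Cytb, mt-Co1 and mt-Nd4 were called in none of the comparisons with 0 h. mt-Cytb had 1621 and 1544 RPKM at 0 h, 1545 and 1588 RPKM at 12 h and 1576 and 1511 RPKM at 24 h in Zn4 cells. For mt-Cytb the WT values at these times were 1876 and 1595 RPKM, 1712 and 1575 RPKM, and 1812 and 1885 RPKM. mt-Co1 had 1776 and 1669 RPKM at 0 h, 1468 and 1459 RPKM at 12 h and 1598 and 1354 RPKM at 24 h in Zn4 cells. For mt-Co1 the WT values at these times were 1997 and 1631 RPKM, 1517 and 1612 RPKM, and 1740 and 1801 RPKM. The stimulated libraries of mt-Cytb overlapped those of 0 h in both genotypes, and mt-Co1 changed by -0.23 at both times in Zn4 cells and by -0.21 and -0.03 in WT cells. In counts, 2 of 7 mitochondrial members rose at 12 h and 2 at 24 h in Zn4 cells, and 2 and 4 in WT cells, with none lower, beside the shares of all genes given above. Under the median-ratio scaling 1 rose and 2 fell at 12 h and none rose and 5 fell at 24 h in Zn4 cells, and 1 rose and 2 fell, and 1 rose and 3 fell, in WT cells. The median mitochondrial change was 0.19 and -0.01 in Zn4 cells and 0.15 and 0.28 in WT cells, close to that of all genes except at 24 h in Zn4 cells, where it lay below.

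**Figure D3:**
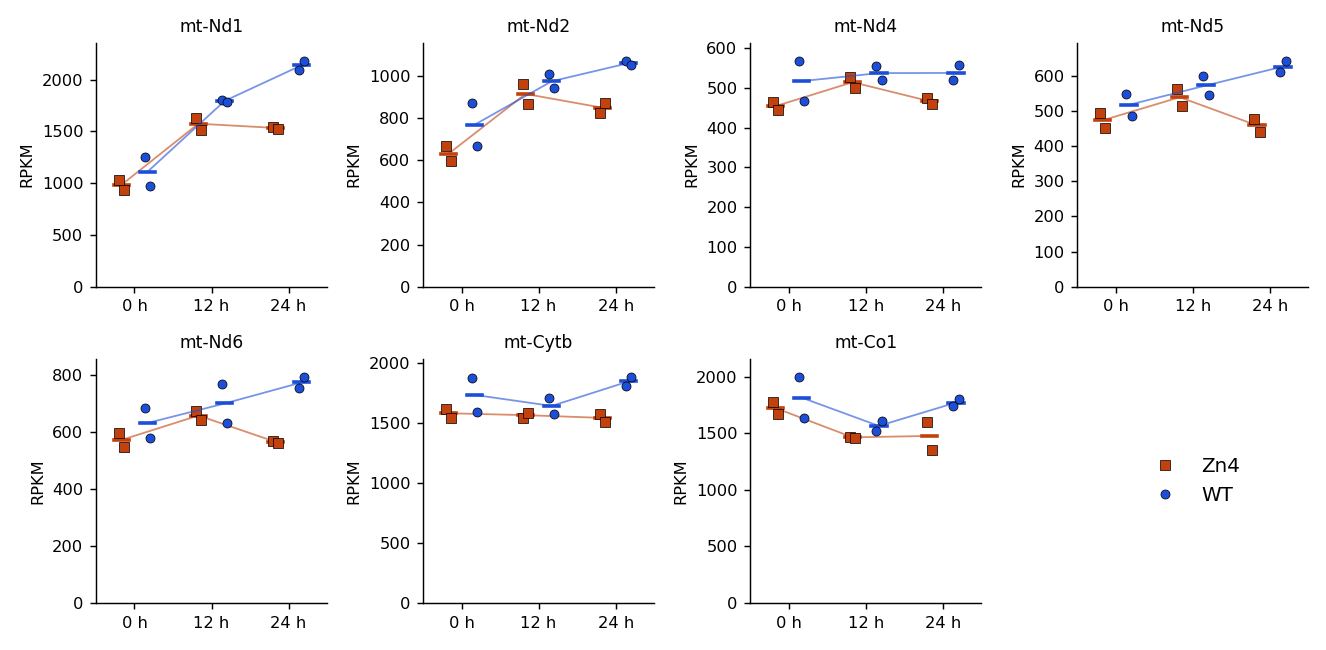
RPKM of each of the 7 mitochondrial genes in the 12 libraries at 0, 12 and 24 h (squares, Zn4; circles, WT; bars, means of 2 libraries, joined by lines). mt-Nd1 is higher in every stimulated library than at 0 h, and at 24 h each gene is lower in both Zn4 libraries than in both WT libraries.

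Within the complexes built from both genomes, the mitochondrial to nuclear ratio fell most for complexes III and IV. For complex I it was 3.83 and 3.83 at 0 h, 2.61 and 2.24 at 12 h and 2.35 and 2.10 at 24 h in Zn4 cells, and 4.77 and 4.49, 2.71 and 2.52, and 2.67 and 2.81 in WT cells. For complex III the ratio was 4.45 and 4.63, 2.06 and 2.01, and 2.12 and 1.79 in Zn4 cells, against 5.38 and 5.19, 2.25 and 2.13, and 2.25 and 2.39 in WT cells. For complex IV it was 2.88 and 2.78, 1.34 and 1.23, and 1.40 and 1.03 in Zn4 cells, against 3.35 and 3.29, 1.35 and 1.38, and 1.40 and 1.46 in WT cells. In each complex all 0 h libraries lay above all stimulated ones. The ratio of complex III rests on mt-Cytb alone and that of complex IV on mt-Co1 alone on the mitochondrial side.

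Between 12 h and 24 h few members moved. In Zn4 cells 5 nuclear members rose and 8 fell (22.6% and 11% of all tested genes), and in WT cells 10 rose and none fell (17% and 6.94%). In limma 3 WT members were lower at an unadjusted p under 0.05, and limma-voom on the recovered reads called none lower. These splits depend on the scaling and the fit: under the median-ratio scaling 3 rose and 12 fell in Zn4 cells and 5 rose and 3 fell in WT cells. In WT cells 15 rose and 2 fell with quantile normalization, and 20 rose and 6 fell in a fit of only the libraries compared. Cox7a2l rose again in both genotypes, by 0.61 ± 0.14 in Zn4 cells and 0.55 ± 0.14 in WT cells (limma adjusted p = 0.008 and 0.0176), without reaching its 0 h level. Cox7b, a small subunit of complex IV, and Atp5sl fell in Zn4 cells between these times, by 0.31 and 0.51 on the log2 scale. These counts fell in both genotypes when any 12 h library was left out, which leaves 1 library in that group. In WT cells this held for replicate 1, which has Y-linked transcripts, and for replicate 2, which has none. With the Y-linked level as a covariate the counts were 0 in Zn4 cells and 1 in WT cells (Sdhd). The calls of Cox7a2l in both genotypes and of Cox7b and Atp5sl in Zn4 cells thus ended with it. In Zn4 cells both 12 h libraries and neither 24 h library held Y-linked transcripts, so the covariate follows time there. The lost calls therefore cannot be assigned to the libraries with Y-linked transcripts. No mitochondrial member was called between these times in either genotype by limma or by limma-voom on the recovered reads, and at an unadjusted p under 0.05 there was 1 in Zn4 cells (mt-Nd5) and 0 in WT cells.

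By contrast the counts against 0 h hardly moved with the libraries that hold Y-linked transcripts. Without the 3 libraries, 68 nuclear members were called at 24 h in Zn4 cells, against 70 with them. In WT cells 69 were called at 12 h and 69 at 24 h, against 71 with them at each time. In Zn4 cells at 12 h, leaving out either library alone gave 67, against 69 with both.

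Zn4 and WT cells differed in few nuclear members. At 0 h, 1 of 77 was higher in Zn4 cells and none lower (3.76% and 1.96% of all tested genes); at 12 h none was higher and 1 lower (4.85% and 8.28%); at 24 h none was higher and 2 lower (9.4% and 9.96%). At an unadjusted p under 0.05 in limma 8 were higher and 1 lower at 0 h, 0 and 2 at 12 h, and 1 and 8 at 24 h, and limma-voom called 1, 1 and 2 members. These shares lie below those of all tested genes at each time. The nuclear sums of both genotypes overlapped at 24 h, with a fold of 0.959.

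Ndufa4, counted here under complex I by its symbol but now regarded as a subunit of complex IV, was lower in Zn4 cells after stimulation. It had 49.5 and 49.0 RPKM at 0 h, 184 and 186 RPKM at 12 h and 184 and 205 RPKM at 24 h in Zn4 cells. For Ndufa4 the WT values at these times were 49.9 and 53.1 RPKM, 227 and 228 RPKM, and 244 and 253 RPKM. The difference at 0 h was -0.06 (limma adjusted p = 0.743). The groups did not overlap at 12 h or 24 h, with differences of -0.30 ± 0.07 at 12 h (limma adjusted p = 0.0282) and -0.36 ± 0.07 at 24 h (adjusted p = 0.00902). The 12 h call ended without any one of the 12 h or WT 24 h libraries (adjusted p of 0.0619 to 0.151), with the Y covariate (0.117) and with the replicate block within genotype (0.0916). The 24 h call ended without WT 24 h replicate 1 or 2 (0.0573 and 0.0883) or Zn4 24 h replicate 1 (0.06), and in a fit of only the libraries compared (0.0552). The smaller rise in Zn4 cells itself was not called (differences in change of -0.23 and -0.29, adjusted p = 0.273 and 0.128).

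Ndufv3, an accessory subunit of the NADH-oxidising arm of complex I, fell at 12 h in both genotypes and was lower in Zn4 cells than in WT cells at 24 h. It had 19.1 and 17.6 RPKM at 0 h, 7.53 and 9.70 RPKM at 12 h and 10.4 and 12.4 RPKM at 24 h in Zn4 cells. For Ndufv3 the WT values at these times were 19.3 and 15.7 RPKM, 11.9 and 12.3 RPKM, and 19.7 and 19.8 RPKM. The fall was 1.02 at 12 h and 0.65 at 24 h in Zn4 cells, whereas WT cells fell by 0.49 at 12 h and were not called at 24 h (0.17). At 24 h Zn4 lay below WT by 0.75 on the log2 scale (limma adjusted p = 0.00491), a call that held in all 25 alternatives, and the difference in change from 0 h was -0.82 ± 0.19 (adjusted p = 0.0321). That difference in change ended without any one of 8 libraries (adjusted p of 0.0538 to 0.116), without the libraries with Y-linked transcripts (0.0589), with the Y covariate (0.0503) and in a fit of only the libraries compared (0.0587). The difference between genotypes in the change from 12 h to 24 h was not tested.

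Cox7b, which is X-linked, was the nuclear member that differed at 0 h. It had 24.1 and 24.5 RPKM at 0 h, 89.2 and 90.2 RPKM at 12 h and 70.1 and 73.8 RPKM at 24 h in Zn4 cells. For Cox7b the WT values at these times were 18.9 and 17.9 RPKM, 78.8 and 84.2 RPKM, and 78.1 and 79.2 RPKM. Both Zn4 libraries were above both WT libraries at 0 h and at 12 h and below them at 24 h. The difference was 0.38 ± 0.07 at 0 h (limma adjusted p = 0.0109; 0.0603 without Zn4 0 h replicate 2, 0.236 in a fit of only the libraries compared and 0.0809 with the replicate block within genotype), and was not called at 12 h (0.14) or 24 h (-0.13). Its change from 0 h to 24 h was smaller in Zn4 cells by 0.51 on the log2 scale (adjusted p = 0.0147), a call that ended without WT 24 h replicate 1 or 2 (0.0736 and 0.0825), without the libraries with Y-linked transcripts (0.0545) and in a fit of only the libraries compared (0.0552).

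**Figure D4:**
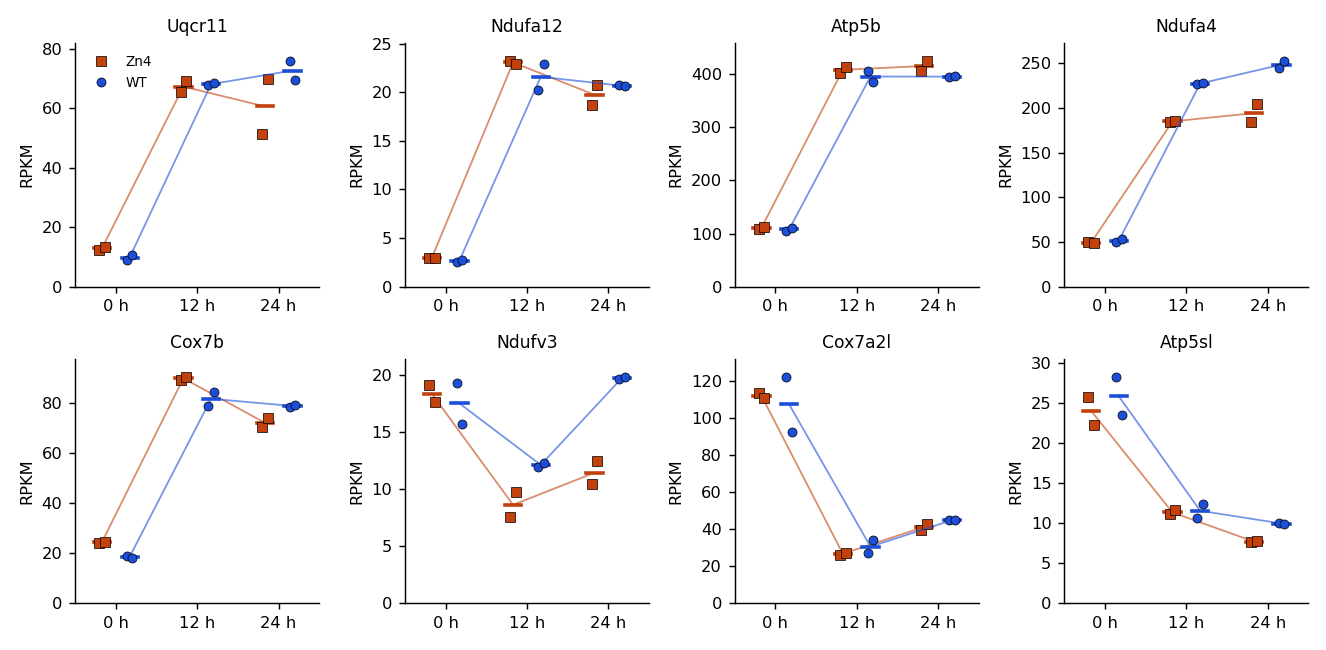
RPKM of 8 nuclear genes (Uqcr11, Ndufa12, Atp5b, Ndufa4, Cox7b, Ndufv3, Cox7a2l and Atp5sl) in the 12 libraries at 0, 12 and 24 h (squares, Zn4; circles, WT; bars, means of 2 libraries, joined by lines). Cox7a2l is above 92 RPKM in every 0 h library and below 45 RPKM afterwards, and Ndufv3 at 24 h is 10.4 and 12.4 RPKM in Zn4 cells and 19.7 and 19.8 RPKM in WT cells.

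Across all nuclear members the difference in change between genotypes was called for none at 12 h in either direction (1.54% and 3.58% of all tested genes higher and lower) and for 2 at 24 h, both lower in Zn4 cells (3.88% and 4.35%). At 12 h, 5 members had an unadjusted p under 0.05 in limma and limma-voom called none. The median of the difference was -0.15 over the 77 nuclear members at 24 h, -0.20 over the 7 mitochondrial members and -0.01 over all tested genes, and the difference was negative, whether a member rose less or fell more in Zn4 cells, for 69 of the 77 nuclear members in the fitted values. At 12 h the median was -0.05 over the nuclear members, and the difference was negative for 53 of them. The 0 h levels enter these differences, which all share the 0 h libraries. In Zn4 against WT, 61 of the 77 were higher at 0 h (median 0.07, and -0.02 over all tested genes). At 24 h 20 were higher (median -0.09, and -0.02 over all tested genes), and most of these differences were not called. The shares of negative differences and of higher genes among all tested genes were not counted. These counts alone therefore do not set the members apart from other genes.

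The mitochondrial genes were lower in Zn4 cells at 24 h, and to a lesser degree in mean at 0 h and 12 h. At 24 h all 7 were below WT with no overlap between libraries, with ratios of group means of 0.717 to 0.868. Their sum stood at 0.787 of its WT mean. Such separation of 2 libraries from 2 was also seen in 34 of 77 nuclear members below WT and 5 above. Its share among all genes was not counted, so the separation cannot be read as particular to the mitochondrial genes. mt-Nd1, mt-Nd5 and mt-Nd6 were called lower, by 0.48, 0.45 and 0.45 on the log2 scale (limma adjusted p = 0.0217, 0.0118 and 0.0218), which is 3 of 7 beside 9.96% of all tested genes. None of the 3 was called when either WT 24 h library or Zn4 24 h replicate 2 was left out. Without Zn4 24 h replicate 1 mt-Nd5 alone was called, and without the libraries with Y-linked transcripts mt-Nd1 lost its call (adjusted p = 0.0639). No mitochondrial member was called between genotypes at 0 h or 12 h, or in its change from 0 h, in limma or limma-voom. At an unadjusted p under 0.05 there was 1, mt-Nd5, in the change to 24 h. All 7 were nevertheless lower in mean in Zn4 cells at 0 h (ratios of 0.820 to 0.949) and at 12 h (0.878 to 0.957). The mitochondrial to nuclear ratio of sums differed (log2, Zn4 against WT) by -0.25 at 0 h, -0.11 at 12 h and -0.28 at 24 h. Mitochondrial genes are transcribed by a common polymerase into long precursor RNAs, so they are not independent of each other. The summed level of the 6 T cell markers also differed at 24 h, with 1279 and 1484 RPKM in Zn4 cells and 2002 and 1930 RPKM in WT cells, and its part in these results was not tested.

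**Figure D5:**
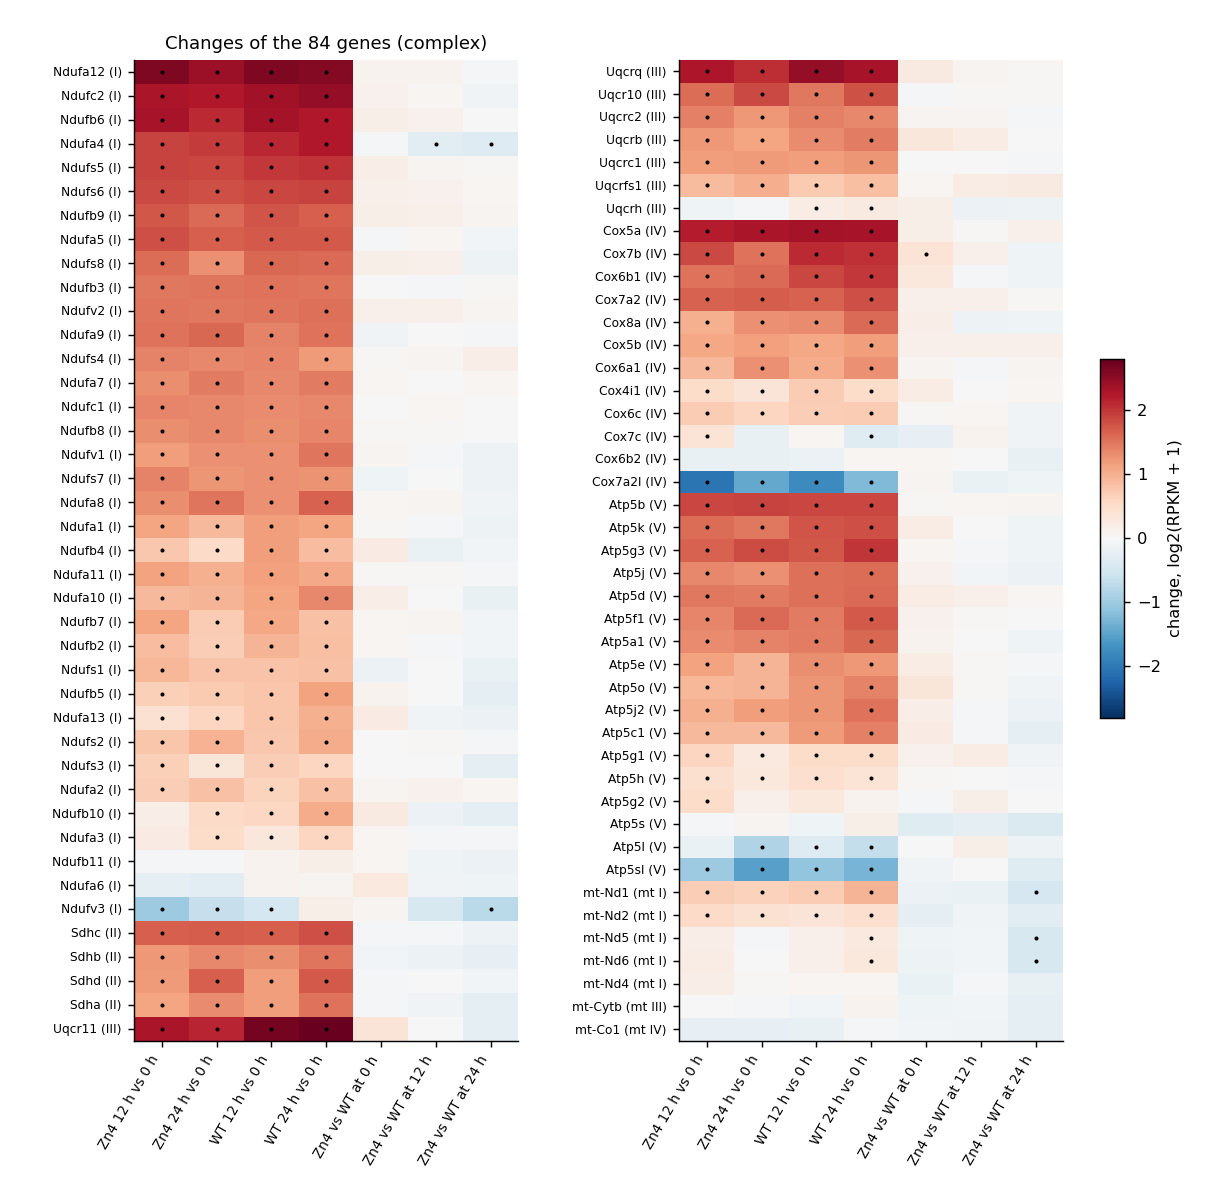
Log2 change (log2(RPKM + 1), limma) of all 84 respiratory chain genes, by complex and genome, in 7 comparisons: 12 h and 24 h against 0 h in Zn4 and WT cells, and Zn4 against WT at 0, 12 and 24 h; a dot marks a called change. The columns against 0 h are mostly above 0 for nuclear genes, and the columns of Zn4 against WT hold 4 dots among nuclear genes and 3 among mitochondrial ones.

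Genes that serve the respiratory chain but lie outside the symbol rule were read from lists chosen with earlier results of these data known. Of 40 assembly factors, 34 rose and 2 fell at 12 h in Zn4 cells and 33 rose and 3 fell in WT cells, beside the shares of all tested genes given above. Ndufaf2, an assembly factor of complex I, had 2.25 and 2.84 RPKM at 0 h, 16.3 and 17.8 RPKM at 12 h and 21.9 and 28.8 RPKM at 24 h in Zn4 cells, against 1.32 and 2.35 RPKM, 18.8 and 18.6 RPKM, and 25.0 and 29.9 RPKM in WT cells. It was lowest in all 0 h libraries, with a 12 h change of 2.35 in Zn4 cells and 2.82 in WT cells. Uqcc2, an assembly factor of complex III, changed by 2.58 and 2.81. Of 17 genes of the tricarboxylic acid cycle and pyruvate dehydrogenase, 16 rose at 12 h in Zn4 cells and 13 in WT cells, and all 17 at 24 h in both genotypes; Fh1, fumarate hydratase, and Mdh2, malate dehydrogenase, changed by 2.16 and 1.97 at 12 h in Zn4 cells and by 2.23 and 2.03 in WT cells. Of 15 genes of coenzyme Q synthesis and cytochrome c, 12 rose and 3 fell at 12 h in both genotypes. Coq4, needed for coenzyme Q synthesis, changed by 2.05 in Zn4 cells and 2.18 in WT cells, and Cyc1, the cytochrome c1 of complex III, by 2.00 and 1.75. Cyc1 is itself a subunit of complex III that the symbol rule does not take in, so the complex III counts and sums above lack it.

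Genes that transcribe and process mitochondrial RNA rose although the mitochondrial sum moved little. Of 23 such genes 20 rose at 12 h in Zn4 cells (43.5% of all tested genes) and 19 in WT cells (43.1%). Lrpprc, which stabilises mitochondrial messenger RNA, had 5.07 and 6.07 RPKM at 0 h, 24.5 and 23.8 RPKM at 12 h and 15.5 and 18.4 RPKM at 24 h in Zn4 cells, against 5.17 and 6.56 RPKM, 26.4 and 23.8 RPKM, and 21.7 and 21.9 RPKM in WT cells. Both genotypes were thus highest at 12 h, with a change of 1.94 in Zn4 cells and 1.93 in WT cells. Polrmt, the mitochondrial RNA polymerase, changed by 1.19 in both genotypes at 12 h, and Slirp, the partner of Lrpprc, by 1.69 and 1.66. Tfam, which packages mitochondrial DNA and starts its transcription, passed the test at 24 h in WT cells (0.40) and not at 12 h (0.25) or in Zn4 cells (0.21 and 0.08), and its WT 24 h change was 0.01, not called, under the median-ratio scaling.

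Of 11 genes of mitochondrial DNA maintenance, 5 rose and 3 fell at 12 h in Zn4 cells and 5 rose and 2 fell in WT cells (5 and 5 under the median-ratio scaling), shares near those of all genes. Polg2, the accessory subunit of the mitochondrial DNA polymerase, fell by 2.32 and 2.31 on the log2 scale, while Top1mt, the mitochondrial topoisomerase, rose by 2.60 and 2.06. Top1mt was also lower in Zn4 cells than in WT cells at 24 h, by 0.58, a call that ended in 6 alternatives (limma adjusted p of 0.0536 to 0.162). Of 10 nuclear regulators of respiratory genes, 6 rose and 1 fell at 12 h in Zn4 cells (43.5% and 29.6% of all tested genes) and 5 rose and 1 fell in WT cells (43.1% and 27%). Under the median-ratio scaling 5 rose and 2 fell in each genotype. Myc, a regulator of growth genes, had 29.0 and 30.7 RPKM at 0 h, 366 and 366 RPKM at 12 h and 243 and 186 RPKM at 24 h in Zn4 cells, against 25.0 and 10.1 RPKM, 272 and 254 RPKM, and 176 and 177 RPKM in WT cells. It was highest at 12 h in both genotypes, as was the coactivator Pprc1 (changes of 1.47 in both). Gabpa and Esrra, factors that bind respiratory gene promoters, changed by 0.87 and 1.22 at 12 h in Zn4 cells and by 0.64 and 1.15 in WT cells, and Nrf1 was called at 12 h in Zn4 cells (0.47; not under the median-ratio scaling, 0.24, limma adjusted p = 0.0924) and not in WT cells (0.16). Ppargc1b, a coactivator of the same family as Pprc1, was lower in Zn4 cells than in WT cells at 24 h by 0.68 on the log2 scale, a call that ended in 5 alternatives (limma adjusted p of 0.0758 to 0.212).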

How the data were processed

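The deposited RPKM values were used as the authors made them: reads were aligned with TopHat2 2.0.12 and counted with HTSeq 0.6.1 against mm10 (GRCm38), per the submitters' processing notes, from stranded mRNA libraries read single-end, per the labels' protocols. Annotation, filters and the strand setting are not given in the sources used here. All 12885 genes gave whole reads within a tolerance of 0.02 reads.

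The 12726 genes that reached 1 RPKM in 2 or more libraries entered the test on log2(RPKM + 1) with limma 3.58.1 (R 4.3.3, trended empirical Bayes, 1 mean per group, 6 residual degrees of freedom), in 11 comparisons, called at a Benjamini-Hochberg adjusted p under 0.05. The method was tested on simulated data. Sums over members carry no test. Copies were searched with BLAST 2.17.0 (at least 95% identity over 50% of a transcript): 11 nuclear members (Atp5g2, Atp5h, Atp5k, Atp5l, Atp5o, Cox7c, Ndufb11, Ndufs3, Ndufs5, Ndufs6, Uqcrb) and 3 mitochondrial members had one, so their levels are uncertain. Tables and figures used Python 3.11.15 with pandas 2.3.3 and matplotlib 3.10.9.

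Named genes are all mitochondrial members, the 2 called nuclear members of each complex with the largest changes and its highest member, every nuclear member called between genotypes, isoform pairs and set genes of the context lists; the few others (such as Ndufv1, Ndufs1, Ndufs8, Uqcrc1, Uqcrh, Ndufa6, Ndufb11, Atp5a1, Atp5g1 and Atp5g2) were named after their values were seen. Members and lists were chosen with earlier results of these data known. Same-numbered libraries of different groups deviated together in 3 of 15 group pairs (r of -0.115 to 0.61), so the numbers were not taken to pair samples. Alternatives covered scaling, pseudocount, filter, limma-voom on recovered reads, a replicate block, a Y-linked covariate, the libraries in the fit and single libraries left out.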

Additional observations from a re-analysis of the deposited data

Results flagged for a closer look

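Cox7b, a small subunit of complex IV, and Ndufv3, an accessory subunit of complex I, are listed here because the change from 0 h to 24 h differed between genotypes by a test of the difference itself. The difference in log2 change, Zn4 minus WT, was -0.51 for Cox7b (limma adjusted p = 0.0147), where both Zn4 libraries lay above both WT libraries at 0 h and below them at 24 h. For Ndufv3 it was -0.82 (limma adjusted p = 0.0321), with Zn4 levels at 24 h of 10.4 and 12.4 RPKM and WT levels of 19.7 and 19.8 RPKM. Neither call held in a fit of only the libraries compared or without the libraries with Y-linked transcripts.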

How the results depend on the processing

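The counts of members called against 0 h kept their size for the nuclear genes (66 to 71 of 77) under every single library left out, and the small counts between 12 h and 24 h, between genotypes and among mitochondrial genes did not. Of the counts over all alternatives 465 stayed within 1.5 times the reported count and 77 did not; of the results of single genes 6245 kept their direction and side of the threshold, 323 lost a call and 9 changed sign. With 2 libraries a group, the causes of lost calls were not tested.

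With single libraries left out, nuclear counts ran from 68 to 70 (WT 12 h), 69 to 71 (WT 24 h), 66 to 70 (Zn4 12 h) and 67 to 71 (Zn4 24 h) against 0 h, from 4 to 16 (Zn4) and 1 to 13 (WT) between 12 h and 24 h, 0 to 2, 0 to 2 and 1 to 5 for Zn4 against WT at 0, 12 and 24 h, and 0 to 8 (24 h) and 0 to 0 (12 h) for the difference in change. Mitochondrial counts ran from 2 to 4 (Zn4 12 h), 1 to 3 (Zn4 24 h), 1 to 2 (WT 12 h), 2 to 4 (WT 24 h), 0 to 0 (Zn4) and 0 to 1 (WT) between 12 h and 24 h, 0 to 1, 0 to 0 and 0 to 5 between genotypes at 0, 12 and 24 h, and were 0 for the difference in change.

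Fitting only the libraries compared gave nuclear counts of 7 (Zn4) and 26 (WT, 20 higher and 6 lower) between 12 h and 24 h, 0 at 0 h between genotypes and 0 for the 24 h difference in change, and mitochondrial counts of 1 and 1 (WT 12 h and 24 h). Quantile normalization gave nuclear counts of 17 (WT, 24 h against 12 h, 15 higher and 2 lower), 5 (genotype, 24 h) and 5 (difference in change, 24 h), and mitochondrial counts of 4 and 4 (Zn4 12 h and 24 h), 2 (WT 24 h), 1 (WT, 24 h against 12 h), 1 (genotype, 0 h) and 1 (difference in change, 24 h). The Y-linked covariate gave nuclear counts of 0 (Zn4) and 1 (WT) between 12 h and 24 h, 0 at 12 h between genotypes and 1 for the 24 h difference in change, and mitochondrial counts of 1 (Zn4 12 h) and 1 (WT 12 h). Without the libraries with Y-linked transcripts, chosen after seeing the data, the counts were 1 (nuclear, WT, 24 h against 12 h), 0 (nuclear, 24 h difference in change) and 1 (mitochondrial, WT 12 h). A filter at 5 RPKM gave 2 nuclear members between genotypes at 12 h. Median-ratio scaling gave mitochondrial counts of 5 (Zn4 24 h) and 1 (Zn4, 24 h against 12 h).

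With the replicate block nuclear counts against 0 h were 69 and 70 (Zn4 12 h and 24 h) and 70 and 71 (WT), and with the replicate block within genotype they were 69 and 69, and 69 and 71, with 0 members called between genotypes at 0 h and 0 at 12 h. Libraries of different groups share only a number.

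For sums on the log2 scale, median-ratio scaling gave 0.86 and 0.80 (Zn4 12 h and 24 h) and 0.94 and 0.95 (WT) for the nuclear genes and -0.11, -0.29, -0.17 and -0.10 for the mitochondrial ones. The mitochondrial sum without mt-Co1, mt-Nd4 and mt-Nd5 (chosen after seeing the data) was 0.32 and 0.25 in Zn4 cells; at 24 h it was -0.022 without mt-Co1, mt-Nd1 and mt-Nd2 and -0.015 as a median over members. A scaling by 1 factor per library cannot alter the ratio of mitochondrial to nuclear levels. Across the choices of members its log2 change stayed negative. Without mt-Co1, mt-Nd4 and mt-Nd5 it was -0.81 (Zn4 12 h), and -0.97 and -0.90 (WT 12 h and 24 h). Without mt-Co1, mt-Nd1 and mt-Nd2 it was -1.22 and -1.20 in WT cells, and as a median it was -1.26 (Zn4 24 h). Among the genes named in the text, changes of sign under median-ratio scaling were Uqcrh (-0.095 and -0.15) in WT cells at 12 h and 24 h, which was -0.21 and -0.16 under quantile normalization, mt-Nd6 (-0.11) and mt-Nd5 (-0.13) in WT cells at 24 h, Cox4i1 (-0.026) in Zn4 cells at 24 h and Ikzf1 (-0.0009) in WT cells at 12 h, which was -0.12 under quantile normalization.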

Other observations

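The mitochondrial ribosomal RNAs, which are outside the protein-coding members and which mRNA selection is meant to deplete, were also listed. mt-Rnr1, the small ribosomal RNA, had 531 and 402 RPKM at 0 h, 64.3 and 65.0 RPKM at 12 h and 99.9 and 138 RPKM at 24 h in Zn4 cells, against 261 and 231 RPKM, 97.2 and 106 RPKM, and 154 and 163 RPKM in WT cells. It was thus higher in Zn4 cells at 0 h and lower at 12 h and 24 h, with no overlap between the genotypes at any time. mt-Rnr2, the large ribosomal RNA, ran from 167 to 365 RPKM in Zn4 cells and from 172 to 248 RPKM in WT cells across the times.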
